A study of Mus musculus with 2 samples.

Results

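The 10 genes described here, Trem2, Apoe, Gpnmb, Lpl, Fabp4, Fabp5, Plin2, Abca1, Lgals3 and Spp1, encode a lipid-sensing receptor, proteins that carry, split, bind, store and export lipids, and a set of secreted or lysosomal proteins that lipid-laden macrophages often make with them. They were taken by symbol from a feature table of 32285 genes, and all 10 were found. Their unique molecular identifiers (UMIs, a tag for each captured transcript) were followed in single cells of Lewis lung carcinoma (LLC) tumors, a mouse lung cancer line grown under the skin of C57BL/6 mice. Both groups carried Gucy1b1 flox/flox, the floxed gene for the β1 subunit of soluble guanylate cyclase (sGC), which is the receptor for nitric oxide. The sGC Ctr group had no Cre, while the sGC ΔPC group also carried Cspg4-CreERT2, which drives a tamoxifen-inducible Cre in pericytes and in any other cell that uses the Cspg4 (NG2) promoter. Both groups received tamoxifen in 5 doses at 4 weeks of age, LLC cells at 8 weeks, and were dissected 2 weeks later. Each group was 1 library made from a pool of 3 tumors, so no difference between the groups has a replicate check, no test was run on one, and genotype and library cannot be told apart.

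In lipid-laden macrophages, TREM2 binds lipids and lipoproteins and signals through the adaptor TYROBP, and it is known for macrophages of fatty tissue, atheroma, degenerating brain and tumors. APOE carries cholesterol and other lipids in lipoprotein particles and can bind TREM2, while ABCA1 loads cholesterol from the cell onto such particles. LPL splits triglycerides into fatty acids, FABP4 and FABP5 bind fatty acids inside the cell, and PLIN2 coats the droplets in which they are stored. GPNMB is a lysosome-linked membrane glycoprotein, LGALS3 (galectin-3) a sugar-binding lectin, and SPP1 (osteopontin) a secreted phosphoprotein that binds integrins and CD44.

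All members are annotated as genes on GRCm38. Trem2 lies at chr17:48346401-48354147 and Spp1 at chr5:104435118-104441050, both on the plus strand, while Apoe at chr7:19696109-19699188 and Abca1 at chr4:53030787-53159895 lie on the minus strand. The remaining members are Gpnmb (chr6:49036546-49070929, plus), Lpl (chr8:68880491-68907448, plus), Fabp4 (chr3:10204088-10208576, minus), Fabp5 (chr3:10012548-10016607, plus), Plin2 (chr4:86648386-86670060, minus) and Lgals3 (chr14:47367751-47386160, plus). Spp1 shares 75 of the 1145 60-base words of its transcript ends with Gm42793, an overlapping annotation, and Plin2 shares 15 of 1031 with Gm12551, but neither of those is in the deposited feature table. The other 8 members share none with another gene. The set of RefSeq promoters used (GRCm38.p6) held an entry for 7 of the 10 members, and not for Lpl, Fabp4 and Fabp5. Below are the 250 bases before the start site of Trem2 and Apoe, the most macrophage-restricted pair by level, of Abca1, which endothelial cells also used, and of Spp1, which was highest in fibroblasts. They read 5′ to 3′ on the gene's strand, from chr17:48346151-48346400 (plus), chr7:19699189-19699438 (minus), chr4:53159896-53160145 (minus) and chr5:104434861-104435110 (plus). Capitals mark matches, on either strand, to one of the 6 motifs searched.
Trem2: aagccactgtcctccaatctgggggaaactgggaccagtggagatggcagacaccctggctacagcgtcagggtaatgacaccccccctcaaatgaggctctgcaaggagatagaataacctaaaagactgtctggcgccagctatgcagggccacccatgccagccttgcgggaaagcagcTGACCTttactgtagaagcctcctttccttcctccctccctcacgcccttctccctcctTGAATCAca
Apoe: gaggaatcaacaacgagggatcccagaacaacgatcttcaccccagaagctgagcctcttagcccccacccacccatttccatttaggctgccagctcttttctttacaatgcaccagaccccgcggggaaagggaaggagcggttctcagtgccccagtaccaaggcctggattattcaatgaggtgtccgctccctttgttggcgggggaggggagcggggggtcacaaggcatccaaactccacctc
Abca1: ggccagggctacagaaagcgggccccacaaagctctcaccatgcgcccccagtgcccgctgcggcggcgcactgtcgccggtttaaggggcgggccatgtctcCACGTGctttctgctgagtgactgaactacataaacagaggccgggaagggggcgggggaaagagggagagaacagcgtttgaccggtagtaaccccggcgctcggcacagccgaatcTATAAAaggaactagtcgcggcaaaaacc
Spp1: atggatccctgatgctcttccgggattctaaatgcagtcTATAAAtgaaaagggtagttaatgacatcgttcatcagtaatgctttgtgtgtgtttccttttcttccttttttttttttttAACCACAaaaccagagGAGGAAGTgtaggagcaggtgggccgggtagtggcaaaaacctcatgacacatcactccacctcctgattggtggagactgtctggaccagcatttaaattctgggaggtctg
The Trem2 window held TGAATCA 9 to 3 bases before the start. It matched the AP-1-like pattern TGANTCA, which allows any base at its center and which 6.75% of 32851 promoters of this length hold. The window also held the nuclear receptor core motif AGGTCA, read as TGACCT, 68 to 63 bases before the start (14.0% of promoters). The Abca1 window held an E-box CACGTG 147 to 142 bases before the start (6.02%) and TATAAA at 29 to 24 bases (12.4%). The Spp1 window held a PU.1 motif GAGGAAGT at 113 to 106 bases (2.44%), a RUNX motif TGTGGTT, read as AACCACA, at 129 to 123 bases (4.40%) and TATAAA at 211 to 206 bases. None of the 6 was found in the Apoe window. A match says only that the letters are there. The motifs do not overlap one another in these windows.

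The libraries held 15007 (sGC Ctr) and 25631 (sGC ΔPC) barcodes, of which 12220 and 22498 passed the cell filter, with a median of 35776.5 and 8685 UMIs per cell. Levels are therefore given as CPM, the UMIs of a gene per 1000000 UMIs of all cells of a class together, with 95% intervals that cover counting error only, and values are given in the order sGC Ctr, sGC ΔPC. The libraries shared 98 barcodes among the kept cells. Cells were assigned by the summed level of marker genes, none of them a member: 2728 and 3235 macrophages, 114 and 174 fibroblasts, 57 and 52 endothelial cells, 7313 and 9938 cancer cells, and 40 and 30 pericytes. Granulocytes (208 and 258 cells), lymphocytes (90 and 80) and dendritic cells (72 and 52) were assigned likewise. Every marker of each list was detected in its class in both libraries (C1qa at 3925 and 3084 CPM in macrophages, Col1a1 at 10104 and 10133 in fibroblasts, Cldn5 at 1463 and 1021 in endothelial cells, Krt18 at 384 and 324 in cancer cells). The fibroblast markers were not level between the libraries: Clec3b stood at 96.8 and 11.2 CPM (found in 22.8% and 2.30% of the fibroblasts) and Dpt at 441 and 280 CPM, while Pdgfra stood at 294 and 318 CPM. Within 1.5-fold of the cut lay 585 and 976 cells for the macrophages, 12 and 48 for fibroblasts and 14 and 34 for endothelial cells. For dendritic cells, cut at only 5 per 10000 UMIs, 45 and 63 cells lay that near. Cells that passed 1 gate but carried over 25% cancer-cell RNA were left out, among them 372 and 2521 cells past the macrophage gate. Macrophages kept an estimated cancer-cell RNA share of 7.54% and 7.80%, and the macrophage RNA share was 2.90% and 3.99% in fibroblasts, 0.680% and 1.04% in endothelial cells and 0.526% and 0.958% in cancer cells. The part of such RNA in the values below was not tested. Gucy1b1, the targeted gene, stood at 120 and 42.9 CPM in pericytes (59 and 13 UMIs), a log2 ratio of −1.48 (−2.47 to −0.60).

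The genes fell into 4 patterns across macrophages, fibroblasts, endothelial cells and cancer cells. Trem2 and Apoe were nearly confined by level to macrophages, Spp1 and Lpl were highest in fibroblasts, Fabp4 and Abca1 were highest in endothelial cells, and Gpnmb, Fabp5, Plin2 and Lgals3 were highest in macrophages with sizeable levels elsewhere. In all, 6 of 10 members were highest in macrophages among macrophages, fibroblasts, endothelial and cancer cells in both libraries, where 19.3% of 14551 genes were. Another 2 were highest in fibroblasts (16.4% of genes), 2 in endothelial cells (18.4%) and 0 in cancer cells (20.1%). Outside these classes, pericytes and dendritic cells held more Fabp5 than macrophages, and granulocytes held more Plin2.

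**Figure D1:**
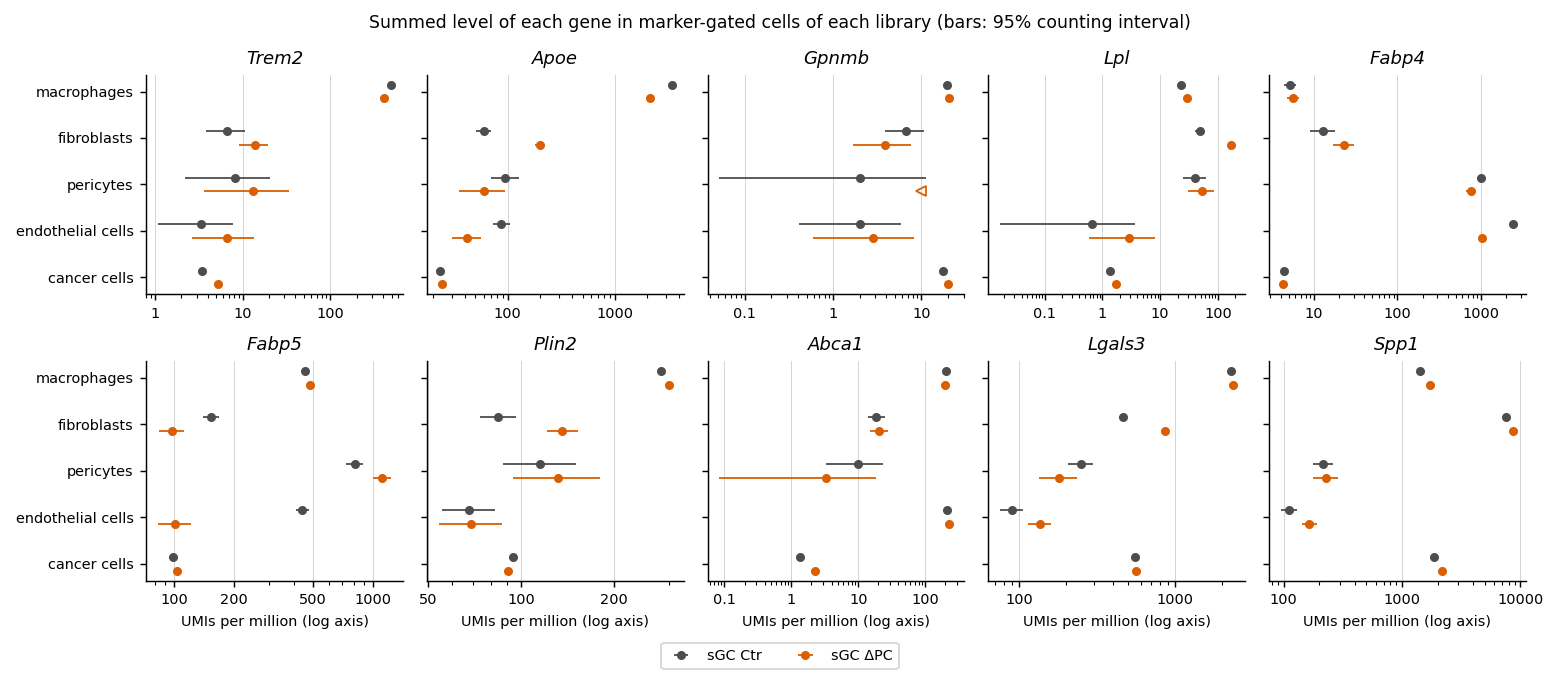
Level of each member (CPM, log axis, a different range in each panel) in 5 marker-gated cell classes of the sGC Ctr and sGC ΔPC libraries, with bars for the 95% counting interval. Trem2 and Apoe sit highest in macrophages, Spp1 in fibroblasts and Fabp4 in endothelial cells, and the open triangle marks Gpnmb in sGC ΔPC pericytes, where 0 UMIs were counted and the 3-count limit of 9.90 CPM is drawn.

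Trem2, the lipid receptor, stood at 488 (480 to 496) and 411 CPM in macrophages. It stood at 6.64 and 13.7 CPM in fibroblasts, 3.33 and 6.62 in endothelial cells and 3.44 and 5.21 in cancer cells. The fibroblast and endothelial levels rest on 17 and 28 UMIs and on 5 and 7 UMIs. In cancer cells its level was 0.704% and 1.27% of that in macrophages, beside a level of the macrophage markers of 0.526% and 0.958%. The cancer-cell gate bounded the level of these markers. With each cell thinned to 2000 UMIs, 55.0% and 48.5% of macrophages had a Trem2 UMI, against 0.652% and 1.21% of cancer cells. Unthinned, at median depths of 10205 and 6852 UMIs for macrophages and 50149 and 16312.5 for cancer cells, the shares were 87.1% and 67.3% against 15.3% and 12.6%.

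Apoe, the lipoprotein component, stood at 3392 and 2152 CPM in macrophages, 23.1 and 24.5 in cancer cells, 87.3 and 41.6 in endothelial cells and 60.1 and 198 in fibroblasts. Like Trem2, it had a cancer-cell level (0.680% and 1.14% of that in macrophages) near the macrophage-marker share. Its spread among macrophages was wide, with quartiles of 2.71, 15.0 and 45.0 UMIs per 10000 in sGC Ctr and 0.336, 7.51 and 23.3 in sGC ΔPC. The sGC ΔPC quartiles were all lower than those of sGC Ctr. Abca1, the cholesterol exporter, stood at 206 and 199 CPM in macrophages and at 216 and 227 CPM in endothelial cells. The endothelial level was 105% and 114% of the macrophage level. In cancer cells Abca1 was at 1.33 and 2.27 CPM, 0.645% and 1.14% of macrophages.

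Spp1 followed another order. Fibroblasts held 7598 and 8725 CPM, which was 533% and 505% of the level in macrophages, and cancer cells held 1860 and 2163 CPM, which was 130% and 125% of it. Macrophages stood at 1426 and 1729 CPM, granulocytes at 953 and 1411, pericytes at 217 and 228 and endothelial cells at 111 and 165. Among fibroblasts the level was very uneven: the median cell held 3.36 and 39.5 UMIs per 10000, the third quartile 60.1 and 139, and the highest cell 1140 and 832, and in each library the 7 cells with most Spp1 UMIs held as many as all the others together, or more. Cancer cells were more even, with medians of 13.4 and 19.4 UMIs per 10000. At 2000 UMIs, 86.2% and 93.5% of cancer cells, 62.2% and 72.9% of macrophages, 57.7% and 81.2% of fibroblasts and 17.9% and 44.0% of endothelial cells had an Spp1 UMI. Unthinned, 84.2% and 92.3% of endothelial cells had one. Cells gated as cancer cells, which carried Spp1 at this level, made up 59.8% and 44.2% of the kept cells, and the part of their RNA in the Spp1 of other classes was not tested.

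Lpl, the secreted lipase, stood at 48.0 and 165 CPM in fibroblasts, 40.5 and 52.8 in pericytes, 22.9 and 28.8 in macrophages, 1.35 and 1.74 in cancer cells and 0.667 and 2.84 in endothelial cells, where only 1 and 3 UMIs were counted. Few cells carried it: 24 and 5 macrophages held as many of its UMIs as all the other macrophages together, or more. Fabp4, the fatty acid binder of capillary endothelium and adipocytes, stood at 2416 and 1045 CPM in endothelial cells and 1007 and 756 in pericytes, with 5.21 and 5.63 in macrophages and 4.35 and 4.21 in cancer cells. Fabp5, its relative, was far less uneven, at 454 and 483 CPM in macrophages, 441 and 101 in endothelial cells, 153 and 97.1 in fibroblasts and 98.4 and 103 in cancer cells. Pericytes held 810 and 1109 CPM of Fabp5 and dendritic cells 970 and 697, both above macrophages. In sGC Ctr, 1 dendritic cell held 19.3% of the Fabp5 UMIs of its class, and the level was 793 CPM without it. Plin2, the droplet coat, stood at 282 and 300 CPM in macrophages, 84.3 and 136 in fibroblasts, 68.0 and 69.0 in endothelial cells and 94.2 and 90.8 in cancer cells, and granulocytes held 408 and 427 CPM.

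Lgals3 stood at 2271 and 2337 CPM in macrophages, with dendritic cells next at 1758 and 1601 CPM, cancer cells at 552 and 558, fibroblasts at 459 and 855 and endothelial cells at 89.3 and 135. Gpnmb was low throughout and nearly level between macrophages (19.3 and 20.7 CPM) and cancer cells (17.6 and 20.2 CPM). The cancer-cell level was 91.2% and 97.4% of the macrophage level, and 2.74% and 2.96% of macrophages and 3.51% and 3.55% of cancer cells had a Gpnmb UMI at 2000 UMIs. Unthinned, those shares were 7.99% and 6.65% of macrophages and 41.9% and 29.9% of cancer cells. The cell with most Gpnmb UMIs was also left out of each class and library. Macrophages stood at 18.3 and 19.2 CPM without it, and cancer cells at 17.6 and 20.1 CPM.

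**Figure D2:**
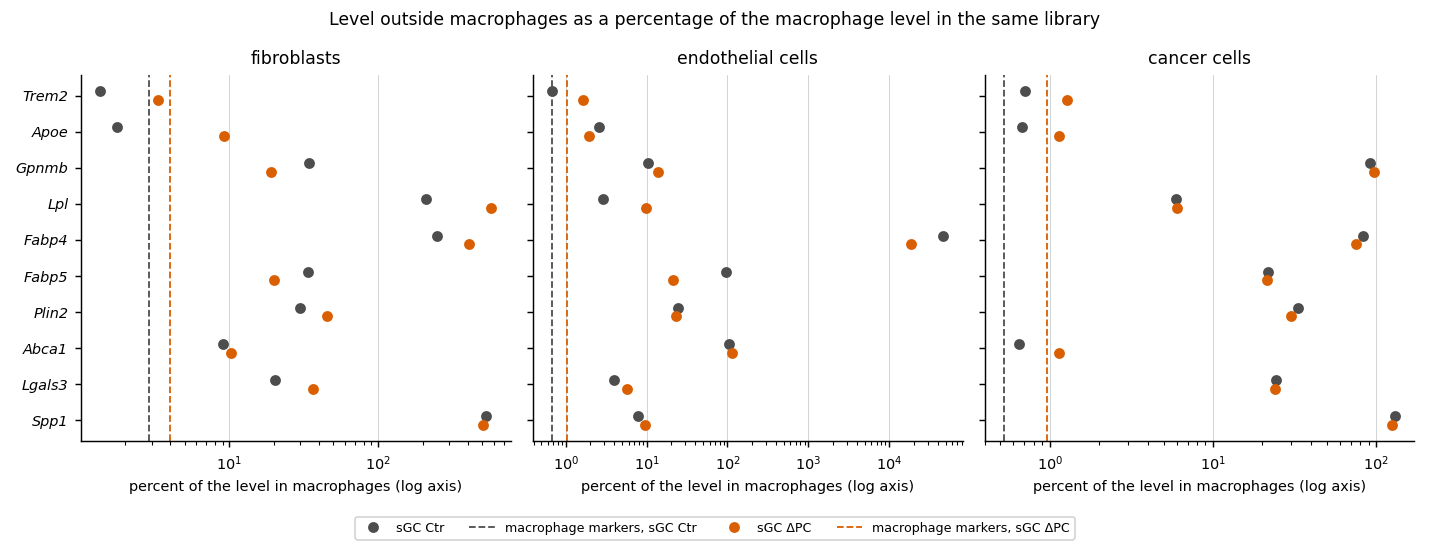
Level of each member in fibroblasts, endothelial cells and cancer cells as a percentage of its level in macrophages of the same library (log axis), with dashed lines for the summed macrophage markers. The gate bounds the dashed lines of the cancer cells. In cancer cells Trem2, Apoe and Abca1 lie within a factor of 2 of the dashed lines, while Gpnmb, Fabp4, Fabp5, Plin2, Lgals3 and Spp1 lie far to the right of them.

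Within macrophages the members split again. A cell was placed in the state whose marker list stood highest against its cut, set at the 90th percentile of that list among macrophages, and 1321 and 1744 macrophages reached no cut. States are ranges of such a score and not cell types, and the cells within 1.5-fold of a cut (110 to 410 per state in sGC Ctr and 251 to 430 in sGC ΔPC) were about as many as the cells in the states or more in all but the Mki67 state of sGC Ctr. Each state was set against all other macrophages of its own library, and a member is counted when it was at least 2-fold apart in both libraries. The counts below are set beside the share of 10886 genes counted the same way. These had at least 50 UMIs over all macrophages of each library, not in each state. The state markers were chosen with earlier results of these data known, so the counts are a description.

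The Mmp12 Hmox1 state (181 and 300 cells) was cut on Mmp12, Hmox1, Slc7a11 and Arg1. It held the most Gpnmb, Fabp4, Plin2 and Lgals3 of the 7 states in both libraries. Gpnmb stood at 107 and 67.0 CPM there against 14.0 and 15.4 in the other macrophages, log2 ratios of 2.93 (2.67 to 3.18) and 2.12 (1.86 to 2.38). Fabp4 stood at 29.5 and 19.6 CPM (log2 ratios of 2.98 and 2.28, on 52 and 54 UMIs) and Fabp5 at 1218 and 971 CPM (1.58 and 1.18). These 3 of 10 members were counted higher, beside 1.37% of genes, and 0 lower, beside 2.39%. Plin2 at 538 and 521 CPM (1.01 and 0.92), Lgals3 at 4128 and 3640 CPM (0.94 and 0.73) and Abca1 at 352 and 308 CPM (0.83 and 0.73) were higher by less. Trem2 did not follow them: it stood at 480 and 404 CPM against 489 and 412 in the other macrophages, log2 ratios of −0.02 (−0.13 to 0.08) and −0.03 (−0.12 to 0.06). Spp1 was 1.91-fold the level of other macrophages in sGC Ctr (2586 against 1356 CPM) and 1.15-fold in sGC ΔPC (1963 against 1702 CPM). Lpl stood at 35.2 and 137 CPM, but 54.4% of the sGC ΔPC UMIs came from 1 cell, and the level without it was 63.0 CPM.

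The Mrc1 Folr2 Ccl8 state (268 and 214 cells), cut on genes of resident-type macrophages, was the highest for Apoe. Apoe stood at 6514 and 4454 CPM there against 2935 and 1920 in the other macrophages, log2 ratios of 1.15 (1.13 to 1.17) and 1.21 (1.18 to 1.24). It was the 1 member of 10 counted higher, beside 1.54% of genes. Lpl was the 1 counted lower, beside 2.20%, at 6.87 and 3.22 CPM on 27 and 8 UMIs. Abca1 at 386 and 343 CPM (log2 ratios 1.10 and 0.90) and Fabp5 at 724 and 1083 CPM (0.81 and 1.36) passed 2-fold in 1 library each. Trem2 had its highest state level here too, 575 and 515 CPM, though only 1.21-fold and 1.29-fold that of the other macrophages. Spp1 was lower than in the other macrophages, at 723 against 1529 CPM in sGC Ctr and 1347 against 1767 CPM in sGC ΔPC.

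The monocyte state (219 and 224 cells, Ly6c2 and Plac8 among its markers) was the lowest for Trem2. Trem2 stood at 141 and 102 CPM there against 505 and 428 in the other macrophages, log2 ratios of −1.84 (−2.05 to −1.64) and −2.07 (−2.32 to −1.84). Apoe at 1322 and 893 CPM and Spp1 at 616 and 811 CPM were counted lower with it. That made 3 of 10 lower, beside 7.30% of genes, and 0 higher, beside 3.90%. Lgals3 stood at 3452 and 3189 CPM, above the 2214 and 2290 of the other macrophages, and Plin2 at 274 and 306 CPM lay within counting error of the others (log2 ratios −0.05, −0.20 to 0.10, and 0.03, −0.11 to 0.17). The macrophage markers themselves stood at 31.4% and 41.0% of their level over all macrophages in this state. The Il1b state (177 and 190 cells) was alike for Trem2, at 220 and 226 CPM, with macrophage markers at 43.1% and 55.6%. There 2 of 10 members were counted lower, beside 4.61% of genes, and 0 higher, beside 2.45%. Both were thin. Lpl stood at 3.98 and 5.76 CPM on 5 and 8 UMIs, and Fabp4 had only 1 and 2 UMIs in the state (log2 ratios −2.76, −8.07 to −0.26, and −2.02, −5.08 to −0.14). Spp1 in the Il1b state was at 1933 and 1779 CPM, 1.38-fold and 1.03-fold that of the other macrophages.

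The MHC class II high state (201 and 292 cells), cut on antigen-presentation genes, held 4 of 10 members lower, beside 3.20% of genes, and 0 higher, beside 1.11%. Spp1 stood at 567 and 551 CPM against 1485 and 1854 in the other macrophages, and Abca1 at 68.2 and 86.6 against 216 and 211. Gpnmb stood at 4.54 and 7.32 against 20.4 and 22.1 on 9 and 19 UMIs, and Fabp4 at 2.02 and 0.770 against 5.43 and 6.14 on 4 and 2 UMIs. Apoe, at 3966 and 2421 CPM, was 1.18-fold and 1.14-fold the level of the others, and Trem2, at 421 and 358 CPM, was 1.17-fold lower in both. The Ctsk Mmp9 state (116 and 121 cells), cut on Ctsk, Mmp9, Acp5, Atp6v0d2 and Ocstamp, was the highest for Lpl in sGC Ctr. Lpl stood at 165 and 66.6 CPM against 15.8 and 27.1, log2 ratios of 3.39 (3.16 to 3.62) and 1.30 (0.94 to 1.64). It was the 1 member counted higher there, beside 0.689% of genes, with 0 lower, beside 0.643%. Spp1 stood at 1299 and 1844 CPM in that state, but 42.8% of the sGC ΔPC UMIs were in 1 cell, and the level was 1073 CPM without it. In the Mki67 state (245 and 150 cells), the dividing macrophages, Gpnmb was the 1 member counted lower, beside 2.54% of genes. It stood at 8.83 and 1.91 CPM, on only 38 and 4 UMIs. In that state 0 members were higher, beside 5.33%. Fabp5, Plin2, Abca1, Lgals3 and Spp1 all stood below the other macrophages there in both libraries, by 1.46-fold to 2.35-fold.

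**Figure D3:**
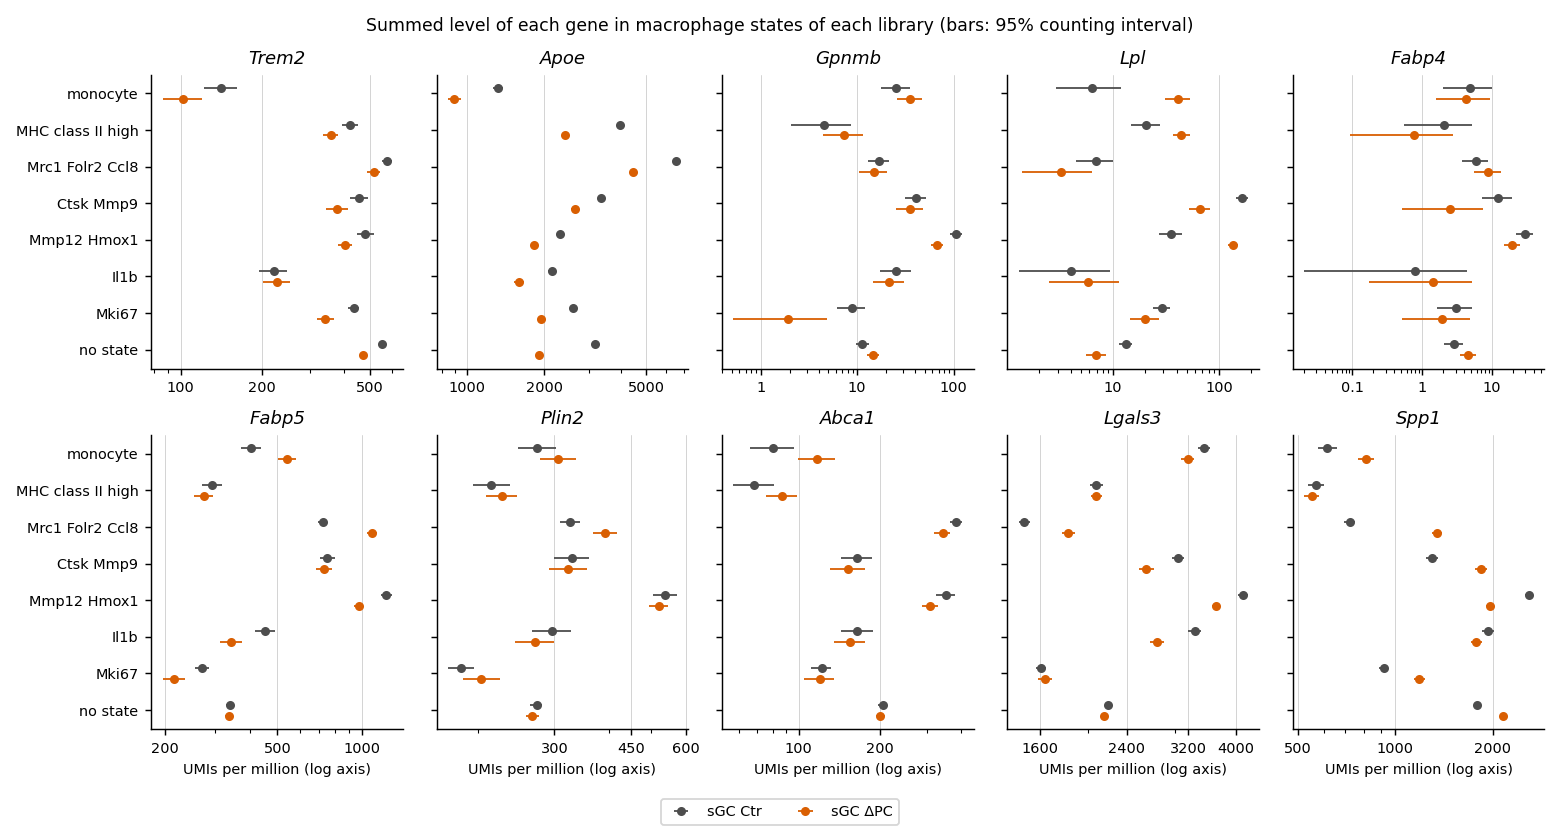
Level of each member (CPM, log axis, a different range in each panel) in 7 macrophage states and in macrophages of no state, with bars for the 95% counting interval. Trem2 is lowest in the monocyte and Il1b states, Apoe is highest in the Mrc1 Folr2 Ccl8 state and lower in sGC ΔPC in all 8 rows, and Gpnmb, Fabp4, Fabp5 and Plin2 peak or nearly peak in the Mmp12 Hmox1 state.

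Cell by cell, the members shared cells unevenly. With macrophages thinned to 2000 UMIs, a Gpnmb UMI was found in 74 and 76 of them, and of these 60.8% and 71.1% also had a Fabp5 UMI, against 33.2% and 34.8% of the macrophages without Gpnmb. Plin2 was found in 63.5% and 68.4% of the Gpnmb-positive cells, against 38.3% and 40.4% of the rest. The exact 95% binomial intervals of these pairs did not overlap in either library. That was not particular to Gpnmb, since it also held for Trem2 with Apoe and for Fabp5 with Plin2. The intervals treat the cells of a pooled library as independent. They cover counting error only and not the spread between tumors. No share over all genes is set beside these pairs, so whether Fabp5 and Plin2 stand out among genes was not tested. Trem2-positive cells (1488 and 1246) and Trem2-negative cells (1216 and 1325) differed less: Apoe was found in 76.8% and 67.0% of the former and 68.3% and 61.6% of the latter, Abca1 in 28.8% and 27.8% against 23.2% and 23.5%, and Spp1 in 64.6% and 74.6% against 59.4% and 71.3%. Gpnmb was found in 1.95% and 2.73% of Trem2-positive cells and 3.70% and 3.17% of Trem2-negative cells. At this depth a cell without a UMI may still use the gene. Since free RNA and the state of a cell also enter such shares, they are given as a description.

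**Figure D4:**
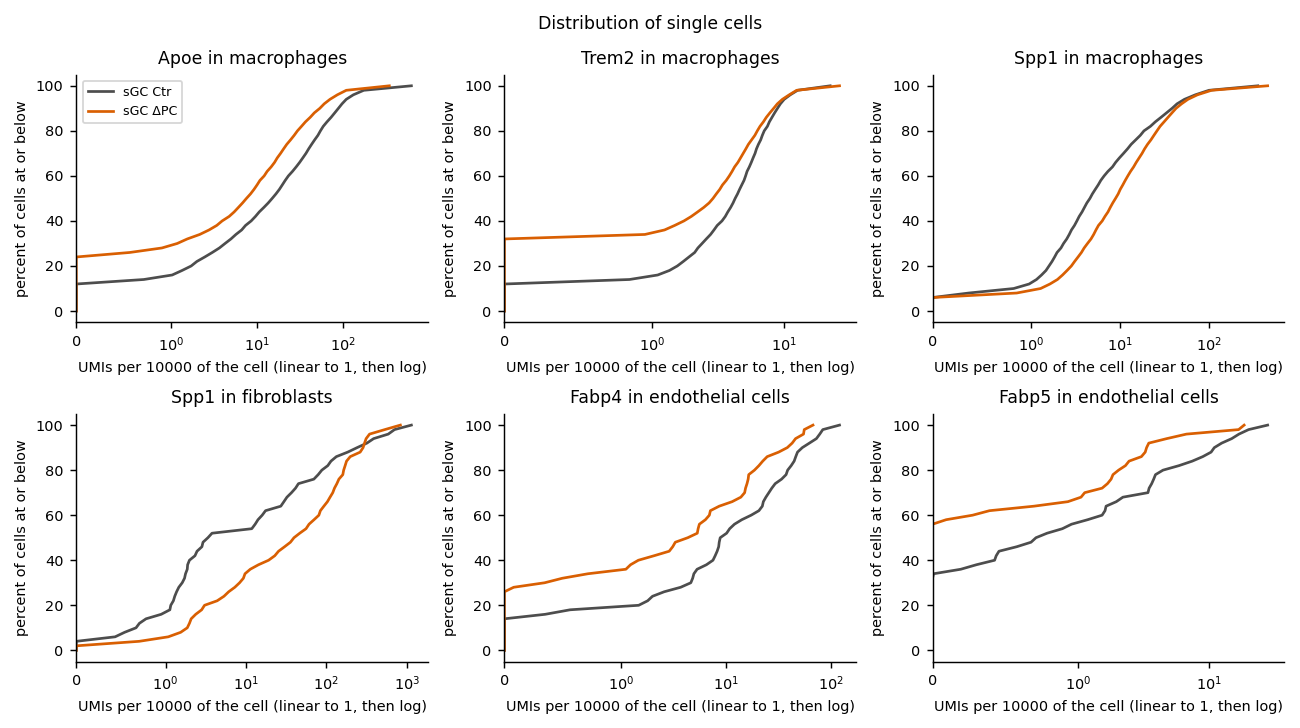
Percentage of cells at or below each level (UMIs per 10000 UMIs of the cell, axis linear to 1 and then log) for Apoe, Trem2 and Spp1 in macrophages, Spp1 in fibroblasts and Fabp4 and Fabp5 in endothelial cells, in each library. Apoe in macrophages has medians of 15.0 and 7.51, and Spp1 in fibroblasts has medians of 3.36 and 39.5 with a long upper tail.

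Between the libraries, the clearest difference in macrophages was a lower Apoe in sGC ΔPC. Apoe stood at 3392 CPM in sGC Ctr and 2152 CPM in sGC ΔPC, a log2 ratio of −0.66 (−0.67 to −0.64), where the median of 12011 genes was −0.05. It was lower in each of the 7 states and in the cells of no state, with log2 ratios from −0.72 (no state) to −0.34 (Ctsk Mmp9 and Mmp12 Hmox1). Trem2 was lower by less, at a log2 ratio of −0.25 (−0.28 to −0.21), and Spp1 was higher, at 0.28 (0.26 to 0.30). The Spp1 difference was not alike over the states: 723 and 1347 CPM in the Mrc1 Folr2 Ccl8 state (log2 ratio 0.90), but 2586 and 1963 CPM in the Mmp12 Hmox1 state (−0.40) and 567 and 551 CPM in the MHC class II high state (−0.04, −0.16 to 0.07). Lpl had a log2 ratio of 0.33 (0.18 to 0.48), which was −0.11 (−0.27 to 0.05) without 1 cell that held 26.3% of the sGC ΔPC UMIs and 0.02 without the cell with most Lpl UMIs of each library. Gpnmb (0.10), Fabp4 (0.11), Fabp5 (0.09), Plin2 (0.09), Abca1 (−0.05) and Lgals3 (0.04) lay near the median gene. Over all macrophages 0 of 10 members were higher by 2-fold, beside 0.741% of genes, and 0 of 10 lower, beside 0.366%, and the median member had a log2 ratio of 0.09. Of the macrophages thinned to 2000 UMIs, 73.0% and 64.2% had an Apoe UMI and 62.2% and 72.9% an Spp1 UMI.

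Within states Lpl was the member that passed 2-fold between the libraries, and its direction differed. It stood higher in sGC ΔPC in the monocyte state (6.32 and 41.0 CPM on 9 and 58 UMIs, a log2 ratio of 2.70, 1.67 to 3.90, where 0.708% of genes passed upward), in the MHC class II high state (20.7 and 44.3 CPM, 1.10, 0.57 to 1.65, beside 0.570%) and in the Mmp12 Hmox1 state (35.2 and 137 CPM, 1.96, 1.57 to 2.37, beside 0.859%). It stood lower in the Ctsk Mmp9 state (165 and 66.6 CPM, −1.31, −1.70 to −0.94, where 0.538% of genes passed downward). Single cells weighed on these values: 1 sGC ΔPC cell held 63.8% of the Lpl UMIs of its library's monocyte state, and without the sGC ΔPC cell with most Lpl UMIs the ratios were 1.24 (0.06 to 2.55), 0.91 (0.37 to 1.47), 0.84 (0.41 to 1.28) and −1.51 (−1.92 to −1.12), in the same order. Without the cell with most Lpl UMIs of each library they were 1.60 (0.31 to 3.08), 1.13 (0.56 to 1.73), 1.14 (0.67 to 1.62) and −1.12 (−1.54 to −0.71), so each stayed past 2-fold. In the Mki67 state a ratio of −0.52 became −1.43 without the sGC ΔPC cell and −1.08 without the cell of each library. With the macrophage gate raised 1.5 times the Mmp12 Hmox1 ratio was −0.78, and with cells thinned to 2000 UMIs it was −0.45.

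In endothelial cells both fatty acid binders stood lower in sGC ΔPC. Fabp4 was at 2416 and 1045 CPM, a log2 ratio of −1.21 (−1.31 to −1.11), and Fabp5 at 441 and 101 CPM, −2.12 (−2.43 to −1.83). Apoe was at 87.3 and 41.6 CPM on 131 and 44 UMIs, −1.07 (−1.60 to −0.57). These 3 of the 7 members with at least 50 UMIs passed 2-fold downward, beside 0.674% of 5936 genes, and 0 passed it upward, beside 0.792%. With 57 and 52 cells, single cells can weigh heavily: 1 sGC Ctr cell held 10.7% of the Fabp4 UMIs and 21.6% of the Fabp5 UMIs of its library. Without the cell with most UMIs of the gene in each library, the log2 ratios were −1.27 for Fabp4, −2.04 for Fabp5 and −0.99 for Apoe. With cells thinned to 2000 UMIs the log2 ratio of Fabp5 was −0.69, and with equal weight for each cell those of Fabp4 and Apoe were −0.86 and −0.23. Abca1 (216 and 227 CPM) and Plin2 (68.0 and 69.0 CPM) stood level, and Lgals3 (log2 ratio 0.60) and Spp1 (0.58, 0.27 to 0.90) stood higher in sGC ΔPC. The Apoe and Spp1 differences were not particular to endothelial cells. Apoe was also lower in granulocytes (−0.96, −1.42 to −0.51), lymphocytes (−0.78, −1.47 to −0.11) and macrophages (−0.66), but not in cancer cells (0.08). Spp1 was also higher in granulocytes (0.57) and lymphocytes (0.73), but lower in dendritic cells (−0.43). The macrophage RNA share of the endothelial cells was 0.680% and 1.04%, and their cancer-cell RNA share 5.58% and 4.72%. The part of either in these ratios was not tested. In pericytes Fabp5 stood at 810 and 1109 CPM, a log2 ratio of 0.45 (0.24 to 0.67), with Fabp4 at −0.41. With cells thinned to 2000 UMIs the Fabp5 ratio was −0.14. It was 0.18 (−0.05 to 0.41) without 1 sGC ΔPC cell that held 24.4% of its UMIs. Without the cell with most Fabp5 UMIs of each library it was 0.33 (0.09 to 0.57), so its direction in pericytes depended on the processing.

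In fibroblasts, Apoe (60.1 and 198 CPM, log2 ratio 1.72, 1.45 to 2.00) and Lpl (48.0 and 165 CPM, 1.78, 1.48 to 2.09) passed 2-fold upward, 2 of 8 members beside 0.941% of 7758 genes, and 0 passed it downward, beside 1.15%. A single sGC ΔPC cell of 23130 UMIs supplied 294 of the 406 Apoe UMIs (72.4%), 47.2% of Lpl, 61.7% of Fabp4, 31.2% of Plin2 and 32.4% of Lgals3. Its fibroblast markers stood at 140 per 10000 UMIs, its macrophage markers at 0.865, and its estimated cancer-cell RNA share was 0%. Without that cell, and with all sGC Ctr cells kept, the log2 ratios were −0.12 (−0.49 to 0.24) for Apoe, 0.88 (0.54 to 1.22) for Lpl, −0.54 (−1.45 to 0.33) for Fabp4, 0.17 (−0.12 to 0.46) for Plin2 and 0.35 (0.23 to 0.47) for Lgals3, so 0 members passed 2-fold. Without the cell with most UMIs of the gene in each library, they were 0.16 for Apoe, 1.29 for Lpl, −0.09 for Fabp4, 0.23 for Plin2 and 0.42 for Lgals3. The Lpl ratio was 0.18 with mitochondrial UMIs under 5% and 0.37 with a stricter fibroblast gate. Spp1, at 0.20 (0.17 to 0.23), was at 0.02 (−0.02 to 0.05) without its own highest sGC ΔPC cell. The libraries' fibroblasts also differed in depth, with medians of 21561.5 and 4430.5 UMIs, and in the markers Clec3b and Dpt given above.

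In cancer cells 0 of 10 members passed 2-fold in either direction, beside 2.42% of 15140 genes upward and 0.125% downward. Spp1 stood at 1860 and 2163 CPM, a log2 ratio of 0.22. The largest ratios were those of Abca1 (0.77) and Trem2 (0.60), and with cells thinned to 2000 UMIs these were 1.97 and 1.13. The levels of Abca1, Trem2 and Apoe there lay near the macrophage-marker share, which itself was 0.526% in sGC Ctr and 0.958% in sGC ΔPC. The cancer-cell gate bounded that share. Apoe had a ratio of 0.08 in cancer cells. In macrophages the ratios of Abca1, Trem2 and Apoe were −0.05, −0.25 and −0.66. The part of macrophage RNA in the cancer-cell ratios was not tested. Gpnmb (0.19), Fabp5 (0.06), Lgals3 (0.01), Fabp4 (−0.05) and Plin2 (−0.05) differed by less than 1.2-fold.

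**Figure D5:**
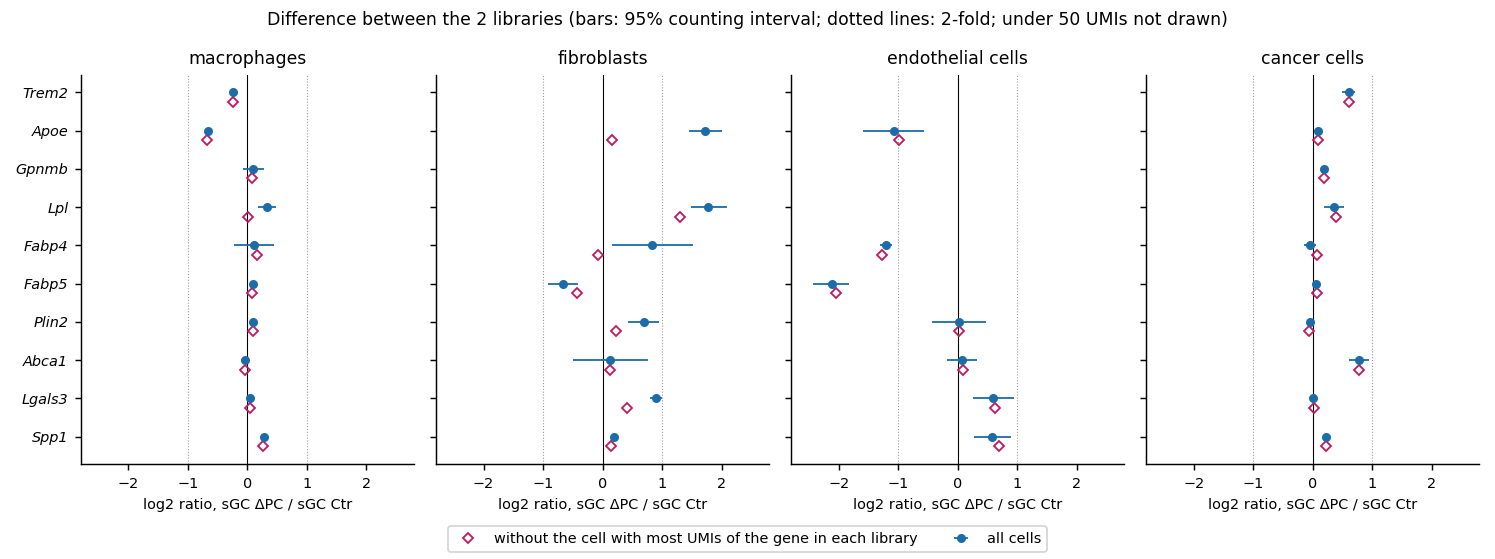
Log2 ratio of sGC ΔPC to sGC Ctr for each member in macrophages, fibroblasts, endothelial cells and cancer cells, with bars for the exact 95% counting interval and open diamonds for the ratio without the cell that holds most UMIs of the gene in each library. Apoe lies at −0.66 in macrophages, Fabp4 and Fabp5 lie at −1.21 and −2.12 in endothelial cells, and Apoe and Lpl lie at 1.72 and 1.78 in fibroblasts, with diamonds at 0.16 and 1.29.

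The wider pathway was read from 66 genes in 9 lists, from TREM2 signaling to lipid uptake, efflux, droplets and osteopontin receptors. In macrophages 0 of the 59 with enough UMIs passed 2-fold in either direction, beside 0.741% of all genes upward and 0.366% downward. Their median log2 ratio was 0.02. Tyrobp, the TREM2 adaptor, stood at 2041 and 1770 CPM (log2 ratio −0.21) and Grb2, an adaptor further down the pathway, at 205 and 190 CPM (−0.11). Of the uptake receptors, Lrp1 stood at 551 and 516 CPM (−0.10) and the scavenger receptor Msr1 at 410 and 454 CPM (0.15). On the efflux side, the phospholipid transfer protein gene Pltp stood at 732 and 606 CPM (−0.27) and the apolipoprotein gene Apoc2 at 58.4 and 49.0 CPM (−0.25), both lower in sGC ΔPC as Apoe was, by less. The cholesterol genes Npc2, of the lysosome, and Soat1, which esterifies cholesterol, had log2 ratios of −0.02 and 0.08. Hilpda, a droplet protein that inhibits lipolysis, stood at 164 and 191 CPM (0.22), and Plin3 at 59.1 and 55.6 CPM (−0.09). Cpt1a and Acadvl, of fatty acid oxidation, had ratios of 0.02 and −0.07, and Sel1l and Lmf1, which help LPL mature, −0.22 and 0.09. The osteopontin receptors Cd44 (369 and 439 CPM) and Itgb1 (439 and 392 CPM) differed by 0.25 and −0.16. Cd63, a lysosomal tetraspanin, and Sdc4, a syndecan, the most abundant of the list of GPNMB partners, had ratios of −0.24 and 0.17. In fibroblasts 1 of 39 pathway genes, Msr1, was at least 2-fold higher in sGC ΔPC (16 and 42 UMIs), which is 2.56% beside 0.941% of all genes. In endothelial cells 0 of 35 passed in either direction, beside 0.792% of all genes upward and 0.674% downward. In cancer cells Apoc4 and Gpihbp1 were the 2 of 61 that were higher, 3.28% beside 2.42% of all genes. Both levels were very low. Apoc4 stood at 0.0472 and 0.137 CPM on 19 and 41 UMIs. Gpihbp1 stood at 0.887 and 1.86 CPM, beside 1849 and 1662 CPM in endothelial cells.

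Among states, the most pathway genes passed 2-fold in both libraries in the monocyte and Il1b states, where the most genes of all were also counted lower. In the monocyte state 6 of 56 were lower (Cd36, Nr1h3, Pltp, Itga9, Mitf and Cd63), 10.7% beside 7.30% of all genes, and 2 higher (Apoc2 and Dgat2), 3.57% beside 3.90%. Pltp, for example, stood at 81.5 and 70.0 CPM there against 732 and 606 CPM over all macrophages. Apoc2 stood at 206 and 139 CPM against 58.4 and 49.0 CPM, the opposite of Apoe. In the Mmp12 Hmox1 state Cd36, a fatty acid transporter, stood at 182 and 201 CPM and Hilpda at 591 and 491 CPM, and these 2 of 56 were counted higher (3.57% beside 1.37%) and 1, Dgat2, lower (1.79% beside 2.39%). The Mki67 state had 6 lower (Olr1, Vldlr, Apoc2, Hilpda, Dgat2 and Fabp3), 10.7% beside 2.54% of all genes. The Il1b state had 5 lower (Cd36, Pltp, Fabp3, Itga9 and Cd63), 8.93% beside 4.61%, and 3 higher (Apoc2, Hilpda and Dgat2), 5.36% beside 2.45%. The MHC class II high state had 4 lower (Cd36, Vldlr, Hilpda and Fabp3), 7.14% beside 3.20%, the Mrc1 Folr2 Ccl8 state 2 lower (Olr1 and Dgat2), 3.57% beside 2.20%, and the Ctsk Mmp9 state 0, beside 0.643%. Dgat2, which makes triglycerides, was at 52 UMIs or fewer in every state. Vldlr and Fabp3 were thin as well, at 53 and 52 and at 85 and 89 UMIs over all macrophages.

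Over the 15 classes and states of both libraries (30 points, which share libraries and, for the states, the macrophage class), the log2(CPM + 1) levels most like Trem2 by Pearson correlation among 10886 genes were those of C3ar1, C1qa and C1qc (0.98) and of Apoe and C1qb (0.97). C3ar1 encodes a complement receptor, and the C1q genes are complement components that were also among the macrophage markers used to gate the cells. Plin2 and Lgals3 followed Trem2 at 0.78, Abca1 at 0.73 and Fabp4 at −0.30. The levels most like Spp1 were those of the metallothionein gene Mt1 (0.86), Flrt2 and Clmp (0.82), Tmem119 (0.81) and Mt2 (0.80), and Spp1 followed Trem2 at 0.33. Gpnmb (0.58) was the member nearest to Spp1.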

How the data were processed

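Single-cell 3′ RNA libraries (10x Genomics, kit v3 in the study's methods) were made by the authors from a pool of 3 tumors per group, and deposited as counts of UMIs per gene and barcode, aligned to mm10 with Cell Ranger 6.1.1 per the labels and the study's methods. Barcodes entered when mitochondrial genes held less than 10% of their UMIs and when log UMIs and log genes lay no more than 3 scaled median absolute deviations from that library's median. Cells were gated on marker levels per 10000 UMIs and at least 3 marker UMIs (macrophages 25, fibroblasts 100, endothelial cells 25, pericytes 25, granulocytes 50, lymphocytes 10, dendritic cells 5, cancer cells 5 with macrophage markers under 5). Cells past several gates (61 and 201) or no gate (917 and 5305) were left out, and no doublet caller was run. UMIs were summed per class and library. With 1 library per group no test was possible, so a difference is counted when it is at least 2-fold. Between libraries, a gene entered when its UMIs in the class or state reached 50 over the pair of libraries. For state counts it needed 50 UMIs over all macrophages of each library, so a counted gene can have few UMIs in the state. Class counts needed 50 UMIs over macrophages, fibroblasts, endothelial and cancer cells of each library. Intervals (95%, exact Poisson, conditional binomial or Clopper-Pearson) cover counting error only. Depth per cell sets which shares of cells can be compared, so cells were thinned to 2000 UMIs for these, which left out 24 and 664 macrophages.

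All 10 members are named. Of the pathway lists the text names the genes past 2-fold between libraries in macrophages, fibroblasts, endothelial or cancer cells, those past it in a state in both libraries, and the 2 most abundant in macrophages per list, and for Trem2 and Spp1 the 5 genes most like each. Members, lists and markers were chosen with earlier results of these data known, and the gate levels were set after the marker counts were seen. The alternatives changed the filter, gates, scaling, depth, cell weights, minimum count and cancer-cell RNA limit, and 2 more were chosen after seeing the data: without the cell that holds most of a gene's UMIs in each library, and without that sGC ΔPC cell only. The scripts, in Python 3.11.15 with numpy 2.4.6, scipy 1.17.1 and pandas 2.3.3, were tested on simulated data. Promoters came from RefSeq (GRCm38.p6) and gene positions from GENCODE (GRCm38).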

Additional observations from a re-analysis of the deposited data

Results flagged for a closer look

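The difference between the libraries ran in different directions, or was clearly larger, in some pairs of cell classes. None of these contrasts between classes was tested, since each class has 1 library per group. For Apoe, the log2 ratio of sGC ΔPC to sGC Ctr was lower in macrophages than in fibroblasts by 2.38 (a difference of -2.38), higher in fibroblasts than in endothelial cells by 2.79, and lower in endothelial cells than in cancer cells (-1.15). For Fabp4 it was higher in fibroblasts than in endothelial cells by 2.04. Both fibroblast values rest on 1 sGC ΔPC cell that held 72.4% of the Apoe UMIs and 61.7% of the Fabp4 UMIs, and without it the fibroblast log2 ratios were -0.12 and -0.54. Without the cell with most UMIs of the gene in each library they were 0.16 and -0.09. For Fabp5 it was higher in macrophages than in endothelial cells by 2.21, and lower in endothelial cells than in cancer cells (-2.18) and pericytes (-2.58). With cells thinned to 2000 UMIs the Fabp5 log2 ratio of endothelial cells, -2.12 here, was -0.69, and that of pericytes, 0.45 here, was -0.14. The Apoe log2 ratio was also negative in granulocytes (-0.96) and lymphocytes (-0.78).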

How the results depend on the processing

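No paired analysis was possible because each group is 1 library. Of 460 alternative values of single genes, 297 stayed inside the counting interval of the reported value, 144 left it and 19, whose reported interval did not reach 0, changed sign. Of 255 alternative counts of genes, 232 were within 1.5 times the reported count. In macrophages the Apoe log2 ratio ranged from -0.82 to -0.60, Trem2 from -0.39 to -0.21 and Spp1 from 0.14 to 0.34, and in endothelial cells Fabp4 ranged from -1.41 to -0.86 and Fabp5 from -2.47 to -0.69. The 2 members higher in sGC ΔPC fibroblasts became 0 with mitochondrial UMIs under 5%, 0 with the gate raised 1.5 times, 1 at 2000 UMIs per cell, 1 (Lpl) without the cell with most UMIs of the gene in each library and 0 without that sGC ΔPC cell only. The 3 lower in endothelial cells became 1 at 2000 UMIs (Fabp4) and 1 with equal weight per cell (Fabp5). The 0 higher in cancer cells became 1 with mitochondrial UMIs under 5%, 3 at 2000 UMIs and 2 with equal weight, and the 0 pathway genes higher in macrophages became 2 with the gate raised, 1 with cancer-cell RNA limited to 10% and 2 with equal weight. Among states, monocyte counts became 1 higher with the gate raised and 1 lower with equal weight. The Mrc1 Folr2 Ccl8 count became 3 higher with cancer-cell RNA limited to 10%. The Ctsk Mmp9 count became 2 higher with the gate raised and 0 with that limit. Il1b counts became 1 lower with the gate lowered, 0 at 2000 UMIs and 1 without the cell with most UMIs, and Mki67 counts 0 lower with that limit and 2 without that cell. Log2 ratios that changed sign were, in macrophages, Lpl (-0.21 with the gate raised, -0.11 without the sGC ΔPC cell), Abca1 (0.02, mitochondrial UMIs under 5%) and Lgals3 (-0.10 at 2000 UMIs, -0.13 with equal weight). In fibroblasts they were Apoe (-0.59 with mitochondrial UMIs under 5%, -0.11 with the gate raised, -0.12 without the sGC ΔPC cell) and Fabp4 (-1.79 with either of the first, -0.99 at 2000 UMIs, -0.09 without the cell of each library, -0.54 without the sGC ΔPC cell). In cancer cells they were Gpnmb (-0.11 at 2000 UMIs) and Plin2 (0.04 with mitochondrial UMIs under 5%, 0.00 at 2000 UMIs), and in pericytes Fabp5 (-0.14 at 2000 UMIs). In the Mmp12 Hmox1 state it was Lpl (-0.78 with the gate raised, -0.45 at 2000 UMIs). The cause of these changes was not tested. With 52 to 174 cells per library, fibroblast and endothelial values are limited by the number of cells.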
